A study of Mus musculus with 8 samples.

Results

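The replication-dependent histone genes were taken as every gene symbol of the count tables that begins with Hist1h, Hist2h, Hist3h or Hist4h. They numbered 68 of 24052 symbols, and all 68 were found under the same symbol in GENCODE vM21 on GRCm38. By class there were 6 H1, 18 H2A, 19 H2B, 12 H3 and 13 H4 genes. By cluster, 54 lay in Hist1 on chromosome 13, 10 in Hist2 on chromosome 3, 3 in Hist3 on chromosome 11 and 1, Hist4h4, on chromosome 6. Of the 68, 58 had at least 1 count in some library and 45 had at least 10 counts over all libraries.

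The mRNAs were measured by RNA-Seq in the mouse medullary thymic epithelial cell (mTEC) line mTEC 3.10 (C57BL/6, called wild type, WT) and in E6, a single clone of that line. The clone was made with Crispr-Cas9 and carries mutations of both alleles of Aire, the autoimmune regulator, in exon 3, and its labels give the genotype Aire +/-. Each cell type was sequenced before thymocyte adhesion, that is without co-culture, and after adhesion, that is after 12 h with 50 thymocytes of C57BL/6 mice per mTEC. There were 2 libraries per condition and 8 in all. All cells were at 2 passages. The labels give 24 h of culture for replicate 1 of E6 before and after adhesion and for replicate 2 of WT after adhesion, and 12 h for the other libraries. Since E6 is 1 clone, its difference from WT holds for that clone, and other clones were not analysed here.

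Histones are the proteins around which DNA is wound. H2A, H2B, H3 and H4 form the core of the nucleosome, and H1 binds the linker DNA between nucleosomes. The replication-dependent genes supply them in S phase, and their mRNAs are the known exception among animal mRNAs in that they end in a stem-loop instead of a poly(A) tail. The stem-loop is bound by SLBP, which is needed for processing, translation and decay of these mRNAs, and NPAT activates the genes at the start of S phase. Some members are known to make a polyadenylated form as well, by use of a poly(A) site downstream of the stem-loop. A library made from poly(A)-selected RNA therefore holds mainly the polyadenylated forms, while a library of RNA depleted of ribosomal RNA holds both. The study's sources name 2 kits here. The labels name a TruSeq stranded mRNA kit, whereas the methods name the TruSeq kit for total RNA.

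The stem-loop was searched in the transcripts as 16 bases, with 6 bases that pair with the last 6 around a loop of 4. The first 6 bases had to start with GG and end with T, and the loop had to start with TT. It was found in 43 of the 68 members (63.2%) and in 25 of 21810 other protein-coding genes (0.115%). The 6 forms found are shown because they mark the mRNA end of the family, with the paired bases in capitals, written 5′ to 3′ as DNA.
in 25 members, among them Hist1h1c, Hist1h1d, Hist1h2bg, Hist1h3d and Hist3h2a: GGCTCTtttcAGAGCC
in 7 members, all of class H4, among them Hist1h4d: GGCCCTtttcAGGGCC
in 6 members, among them Hist1h3c: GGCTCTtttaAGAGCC
in 2 members, Hist1h4i and Hist2h4: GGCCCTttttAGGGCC
in 2 members, Hist1h4b and Hist1h4j: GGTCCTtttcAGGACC
in 1 member, Hist2h2ac: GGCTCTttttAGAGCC

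The last 30 bases of the GENCODE transcripts are shown for members with many counts, because they tell which kind of end the annotation gives, with a whole poly(A) signal in capitals (AATAAA, in some genes its variant ATTAAA).
Hist1h1c: ttctAATAAAaagcgtttagttttcattca
Hist2h2be: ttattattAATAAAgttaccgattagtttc
Hist1h4i: tctgtttacATTAAAagtattctatgctaa
Hist1h2bc: tccatgactgactgaggagccttgggcaag
Hist1h2bg: gctgccagatacactatcaatttgtaaact
Hist1h2ad: atttaaaagagccatttgctgcattttcca
The first 3 ended in a signal, at 26, 22 and 21 bases from the end. Hist1h1c lay at chr13:23738808-23740367 on the plus strand, and its transcript ran 840 bases past the stem-loop. Hist2h2be, at chr3:96221119-96223738 on the plus strand, had 2192 bases after the stop codon. Hist1h2bc, at chr13:23684199-23692908 on the plus strand, was annotated with 2 exons and 742 bases after the stop codon, with no signal in the last 60 bases. Hist1h2ad, at chr13:23574381-23574952 on the plus strand, ended 42 bases after the stem-loop.

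Most counts fell on members whose annotated transcript does not end at the stem-loop. The 21 members that end within 100 bases after it held 554 of 25067 member counts (2.21%), with a share of 0.868% to 3.54% over the 8 libraries. The 22 members that run past it held 10963 counts (43.7%). The 10 members in whose transcript no stem-loop was found, among them Hist1h2bc and Hist2h2be, held 12395 counts (49.4%), and the 15 that end at the stop codon held 1155 (4.61%). The median member had 16 counts for ends at the stem-loop, 46 for transcripts that run past it, 16.5 without a stem-loop and 10 for ends at the stop codon. In the same order, the median transcript lengths were 482, 1255, 681 and 393 bases. Per kilobase the medians were 0.270, 0.265, 0.235 and 0.211 CPM. The median share of 100-base windows that occur in no other transcript was 43.4%, 85.4%, 66.8% and 35.7%. A poly(A) signal stood in the last 60 bases of 17 members (25%), against 73.2% of the other protein-coding genes, and these 17 held 47.0% of the counts. Their median was 0.273 CPM per kilobase, against 0.256 for members without a signal. Whether the RNA was selected by its poly(A) tail was not tested.

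**Figure D1:**
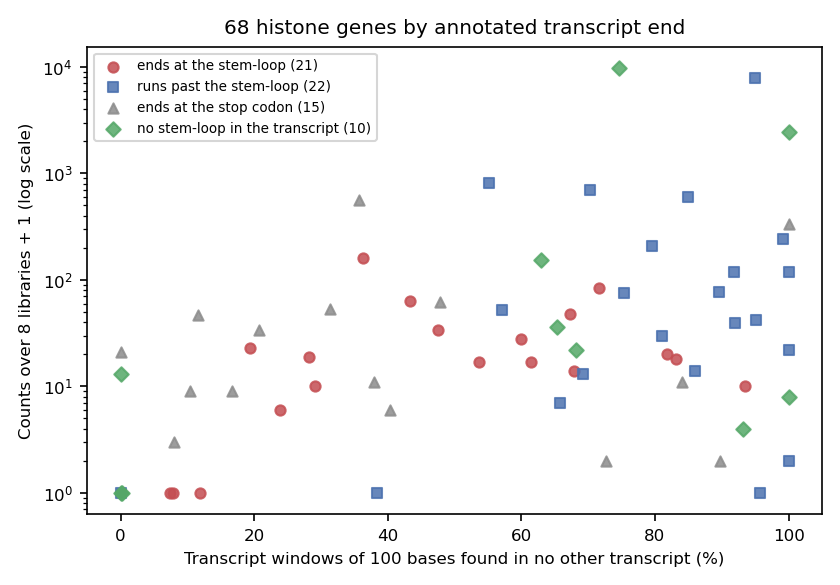
Each point is 1 of the 68 histone genes, with the share of its transcript windows of 100 bases that occur in no other transcript (horizontal, %) and its counts over 8 libraries plus 1 (vertical, log scale). Symbols give the annotated transcript end with the number of genes. The gene with the most counts among the 21 that end at the stem-loop, Hist1h2ad, had 158 counts, against 9725 for Hist1h2bc.

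The copies resemble each other in sequence, which limits the counting. The 28 members under 50% unique at a read length of 100 bases held 4.51% of the counts, and 9 of the 10 members without counts were among them. Alignments to several places made up 11.7% to 17.5% of each library and were counted on no gene. Values for Hist1h4k (35.7% unique), Hist1h2ad (36.4%) and Hist1h3b (43.4%) are therefore uncertain as to the copy.

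Promoters from RefSeq (GRCm38.p6), reaching from 250 bases before to 50 bases after the start, were matched for 61 members, with 2 promoters for Hist1h2be, so that 62 were searched. Letters were searched on both strands, and 3 promoters are shown, of an H1 and an H2B member that differed between the cell types and of an H4 member, with the CCAAT box, the TATAAA box and the octamer ATTTGCAT in capitals, also where they stand reversed on the other strand.
Hist1h1c, chr13:23738557-23738856, plus strand: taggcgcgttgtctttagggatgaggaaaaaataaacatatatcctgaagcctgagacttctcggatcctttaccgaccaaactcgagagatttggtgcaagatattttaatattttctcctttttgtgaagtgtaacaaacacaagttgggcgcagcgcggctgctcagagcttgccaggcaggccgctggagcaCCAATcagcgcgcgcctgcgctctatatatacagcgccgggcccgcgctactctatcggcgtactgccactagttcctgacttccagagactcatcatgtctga
Hist1h2bg, chr13:23571150-23571449, plus strand: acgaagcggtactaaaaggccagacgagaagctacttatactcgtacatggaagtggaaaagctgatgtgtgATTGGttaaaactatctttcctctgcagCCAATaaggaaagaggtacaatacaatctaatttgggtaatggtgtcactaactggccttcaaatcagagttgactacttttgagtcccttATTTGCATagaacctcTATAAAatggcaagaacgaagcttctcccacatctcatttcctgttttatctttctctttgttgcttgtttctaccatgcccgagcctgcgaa
Hist1h4i, chr13:22041313-22041612, minus strand: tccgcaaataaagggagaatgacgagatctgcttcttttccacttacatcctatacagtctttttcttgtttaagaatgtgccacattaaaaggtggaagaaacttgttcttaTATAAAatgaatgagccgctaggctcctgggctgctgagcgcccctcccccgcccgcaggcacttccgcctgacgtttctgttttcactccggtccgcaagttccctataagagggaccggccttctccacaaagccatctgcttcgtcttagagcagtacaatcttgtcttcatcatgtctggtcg
CCAAT stood in 85.5% of the member promoters and in 37.4% of all 32851 promoters. It stood in every matched promoter of H1, H2A, H2B and H3 members and in 3 of 12 promoters (25%) of H4 members. TATAAA stood in 56.5% of the member promoters, against 13.6% of all. The octamer ATTTGCAT stood in 7 of 17 H2A and 7 of 17 H2B promoters, among them 1 of the 2 of Hist1h2be, and in none of the matched H1, H3 and H4 promoters, against 1.74% of all. The promoters of Hist1h2aa and Hist1h2ba, of Hist1h2ae and Hist1h2bg, and of Hist1h2ah and Hist1h2bk overlap. Each of these pairs counts the same octamer for both classes, so the class counts are not independent. Other H2A and H2B promoters, such as those of Hist1h2ad and Hist1h2bf, overlap too.

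Gene counts per library ranged from 13506610 to 20145154, so that 3 counts equal 0.149 to 0.222 counts per 1000000 gene counts (CPM), a floor that covers counting error only. One library stood apart. In replicate 1 of WT after adhesion, the share of alignments on genes was 66.7%, and it was 75.7% to 78.8% elsewhere, while log2 CPM changed by -0.46 for each 10% of GC content, with slopes of -0.02 to 0.13 elsewhere. Of 25 thymocyte markers, 15 symbols were in the tables used here, and their summed level was 0.264 to 1.04 CPM before adhesion, 15.4 and 12.6 CPM in WT after adhesion, and 111 and 89.0 CPM in E6 after adhesion. Markers of thymic epithelium summed to 4062 to 5965 CPM, those of macrophages and dendritic cells to 43.5 to 67.9 CPM, of which Csf1r made up 36.7 to 66.2 CPM, those of fibroblasts to 1.16 to 4.12 CPM and those of B cells to at most 0.735 CPM. Of the 6 tested macrophage and dendritic cell markers, 3 were differentially expressed (DE, limits given below) and higher in E6 after adhesion, beside 8.91% of all genes tested. Before adhesion 1 was DE and higher in E6 (5.01% of all genes). With adhesion, 3 were higher over both cell types (1.89% of all genes), 2 in E6 (2.00%) and 0 in WT (0%). Cd74 had at most 0.0608 CPM in WT before adhesion and 2.21 and 2.27 CPM in E6 before adhesion. Lyz2 went from 0 counts to 6.68 and 5.40 CPM in E6 with adhesion. The part of these cells in the histone values was not tested. In bulk RNA, fewer cells of a type and less RNA per cell cannot be told apart. Aire, the targeted gene, had 3 counts in 1 library of WT and 3 in 1 library of E6, both after adhesion, and 0 in the other 6, so it gives no check of the labels.

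The summed level of the 68 genes was lowest in WT before adhesion. It was 110.5 and 121.4 CPM there, 214.5 and 171.0 CPM in WT after adhesion, 233.1 and 210.1 CPM in E6 before adhesion, and 238.1 and 227.0 CPM in E6 after adhesion. Both WT libraries before adhesion lay below all other libraries, whereas WT after adhesion overlapped with E6. This order rests on Hist1h2bc. Without that gene the sums were 67.8 and 76.6 CPM in WT before adhesion, 72.5 and 99.9 CPM in WT after adhesion, and 143.5 to 158.0 CPM in E6, so that all WT libraries lay below all E6 libraries and the WT conditions overlapped. At 12 h of culture, the WT libraries stood at 110.5, 121.4 and 214.5 CPM and the E6 libraries at 210.1 and 227.0 CPM. At 24 h, the 1 WT library stood at 171.0 CPM and the E6 libraries at 233.1 and 238.1 CPM.

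H2B genes held 53.7% of all member counts, H1 genes 33.7%, H4 genes 5.74%, H2A genes 4.30% and H3 genes 2.55%. Most counts fell on Hist1h2bc (38.8%), Hist1h1c (31.1%) and Hist2h2be with 2440 counts. Summed H1 separated the cell types, at 25.5 to 48.5 CPM in the 4 WT libraries and 85.5 to 99.2 CPM in the 4 E6 libraries. Summed H2A did so too, at 3.83 to 7.59 against 9.56 to 11.3 CPM, and summed H3 at 2.07 to 4.06 against 5.13 to 7.79 CPM. Summed H2B, at 64.8 to 168.7 CPM in WT and 96.7 to 111.9 CPM in E6, overlapped. Summed H4 ranged from 7.78 to 10.7 CPM in WT and from 10.5 to 14.5 CPM in E6, with an overlap of 1 WT library and 1 E6 library.

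**Figure D2:**
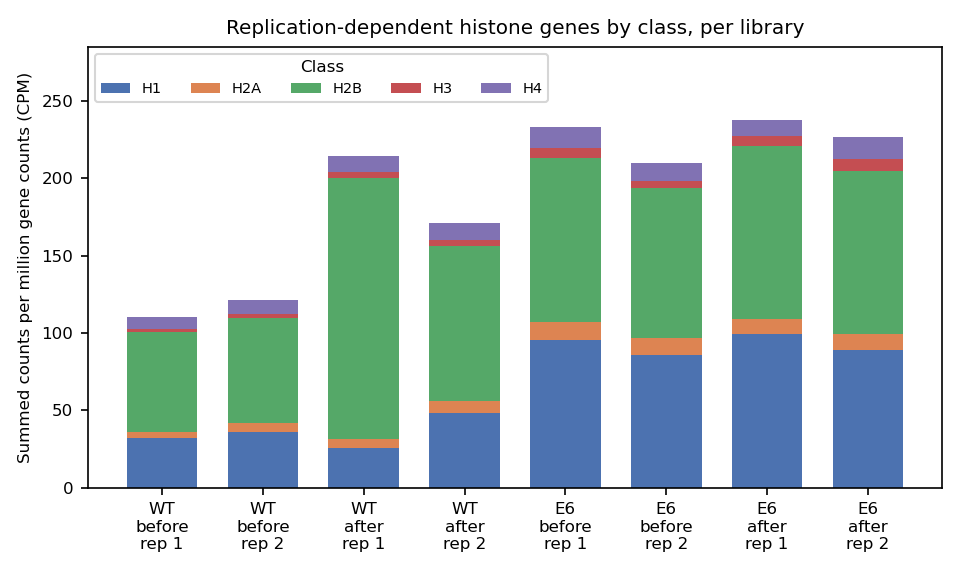
Stacked bars give the summed CPM of the histone genes by class (colours) in each of the 8 libraries. H1 is tallest in the 4 E6 libraries (85.5 to 99.2 CPM), and H2B is tallest in replicate 1 of WT after adhesion (168.7 CPM).

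Levels between genes were compared as CPM per kilobase of transcript. On this scale the 8 highest members were Hist1h2bc (64.4), Hist1h1c (37.8), Hist1h4k (14.0), Hist1h2bg, Hist2h2be (7.06), Hist1h4i (6.16), Hist1h1b (3.35) and Hist3h2a (2.46). The annotated transcripts of Hist1h4k (312 bases) and Hist1h1b (743 bases) end at the stop codon, and a shorter annotated length gives a higher value on this scale. Members known from germ cells were at the floor, with 1 count each over all 8 libraries for Hist1h1t, Hist1h2aa and Hist1h2ba.

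In the comparison of E6 with WT over both conditions (4 libraries against 4), 11 histone genes were higher in E6 and none was lower. An mRNA was called DE at a false discovery rate (FDR) under 0.05 and a fold change (FC) of at least 1.5, by the quasi-likelihood test of edgeR with Benjamini-Hochberg adjustment over all 11672 genes tested. Of the 68 members, 21 passed the filter on low counts and were tested, and these hold 97.5% of the member counts. The share called over all genes tested was 11.3%, or 5.22% in the direction of E6. The median log2 FC was 1.17 over the 21 members and -0.01 over all genes tested. The filter keeps a gene that reaches its minimum in at least 2 libraries of whatever condition, so a member that is high only in E6 can pass through it. Among the 11, this was so for Hist1h4d, Hist1h3c and Hist1h3b. Their WT means were 0.338, 0.293 and 0.268 CPM, against 1.46, 0.969 and 0.692 CPM in E6. Hist1h2ad and Hist1h3g (WT means 0.653 and 0.640 CPM) did not reach the minimum in 2 WT libraries either, so they too passed through E6. Of those not called, it was so for Hist1h2be and Hist1h2bn (WT means 0.294 and 0.296 CPM). Hist1h1e (WT mean 0.345 CPM), also not called, likewise passed through E6. The count of 11 and the median over the 21 are therefore in part set by the filter. With 1 library left out, the smallest group held 1 library, so that reaching the minimum in 1 library was enough. In these fits 23 to 28 members were tested, and both the count called and the share called over all genes depended on which library was left out. The count was 13 higher and 1 lower (13.2% of all genes called) without replicate 1 and 15 higher (21.4%) without replicate 2 of WT after adhesion. It was 3 and 4 without replicates 1 and 2 of WT before adhesion, 5 and 6 without those of E6 before adhesion, and 5 and 4 without those of E6 after adhesion, with 5.61% to 6.84% of all genes called. Of the 11, only Hist1h1c, Hist1h1d and Hist1h2bg kept their call whichever library was left out, and each of the others lost it in some of these fits. Without the filter, 10 of 58 members were higher in E6 and none lower, beside 8.11% of all genes called, and all 10 were among the 11. Of the 47 members not tested, none had more than 47 counts in total, and their summed level was 3.26 to 3.97 CPM in WT and 4.81 to 9.45 CPM in E6.

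For 12 of the 21 members, every E6 library lay above every WT library by CPM, and over all genes tested this held for 16.7%. The members named above as passing the filter through E6, except Hist1h1e, are among the 12. This count is therefore also in part set by the filter. The members called DE came from every class. They were 3 of 4 tested H1 genes, 2 of 2 H2A genes, 1 of 6 H2B genes, 4 of 6 H3 genes and 1 of 3 H4 genes. Of these, Hist1h2ad, Hist1h3c, Hist1h3g, Hist1h3b and Hist1h4d, the only H4 gene called, had passed the filter through E6. The spread over the classes is therefore in part set by the filter as well.

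The H1 genes encode linker histones. Hist1h1c, the member with the most counts of this class, had 29.6 and 34.0 CPM in WT before adhesion, 23.9 and 45.0 CPM in WT after adhesion, 88.7 and 79.9 CPM in E6 before adhesion, and 92.1 and 79.1 CPM in E6 after adhesion. The groups did not overlap, and the highest WT library was the one cultured for 24 h. The WT mean was 33.1 ± 8.91 CPM (SD, n = 4), and that of E6 84.9 ± 6.43 CPM (SD, n = 4). This gave an FC of 2.54, or 1.34 on the log2 scale (SE 0.17), at an FDR of 0.00285 by edgeR. Hist1h1d had 1.03, 1.11, 0.532 and 0.695 CPM in WT and 3.38, 2.38, 2.21 and 3.37 CPM in E6. The lowest E6 library was above the highest WT library, with a log2 FC of 1.76 (SE 0.25, FDR = 0.00434 by edgeR). Hist1h1b had 0.729 and 0.740 CPM in WT before adhesion, 0.998 and 2.43 CPM in WT after adhesion, 2.76 and 2.54 CPM in E6 before adhesion, and 4.10 and 5.58 CPM in E6 after adhesion. It was higher in E6 by a log2 FC of 1.63 (SE 0.28, FDR = 0.00865 by edgeR). Replicate 2 of WT after adhesion came close to the E6 libraries before adhesion. Hist1h1e, the other H1 gene tested, overlapped between the cell types (log2 FC 1.17, SE 0.45, FDR = 0.107 by edgeR) and shares its locus with Hist1h2be.

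Within the H2B class, which supplies a core histone, the members differed in their course. Hist1h2bg had 3.40, 3.48, 2.06 and 3.92 CPM in WT and 10.8, 9.78, 8.88 and 7.36 CPM in E6. The groups did not overlap, with a log2 FC of 1.48 (SE 0.19) and an FDR of 0.00287 by edgeR. Hist1h2bc had 42.7 and 44.9 CPM in WT before adhesion, 142.1 and 71.0 CPM in WT after adhesion, 76.9 and 66.6 CPM in E6 before adhesion, and 80.1 and 71.6 CPM in E6 after adhesion. Replicate 1 of WT after adhesion was the highest library, and WT before adhesion lay below the others. The log2 FC over both conditions was 0.08 (SE 0.22, FDR = 0.844 by edgeR). Without replicate 1 of WT after adhesion it was 0.43 (FDR = 4.40e-06), and without replicate 2 it was -0.14 (FDR = 0.0416), so that these 2 libraries set its direction. Hist2h2be, the member with the third-highest count, ranged from 16.2 to 22.3 CPM in WT and from 14.4 to 19.7 CPM in E6, with a log2 FC of -0.17 (SE 0.10, FDR = 0.301 by edgeR).

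**Figure D3:**
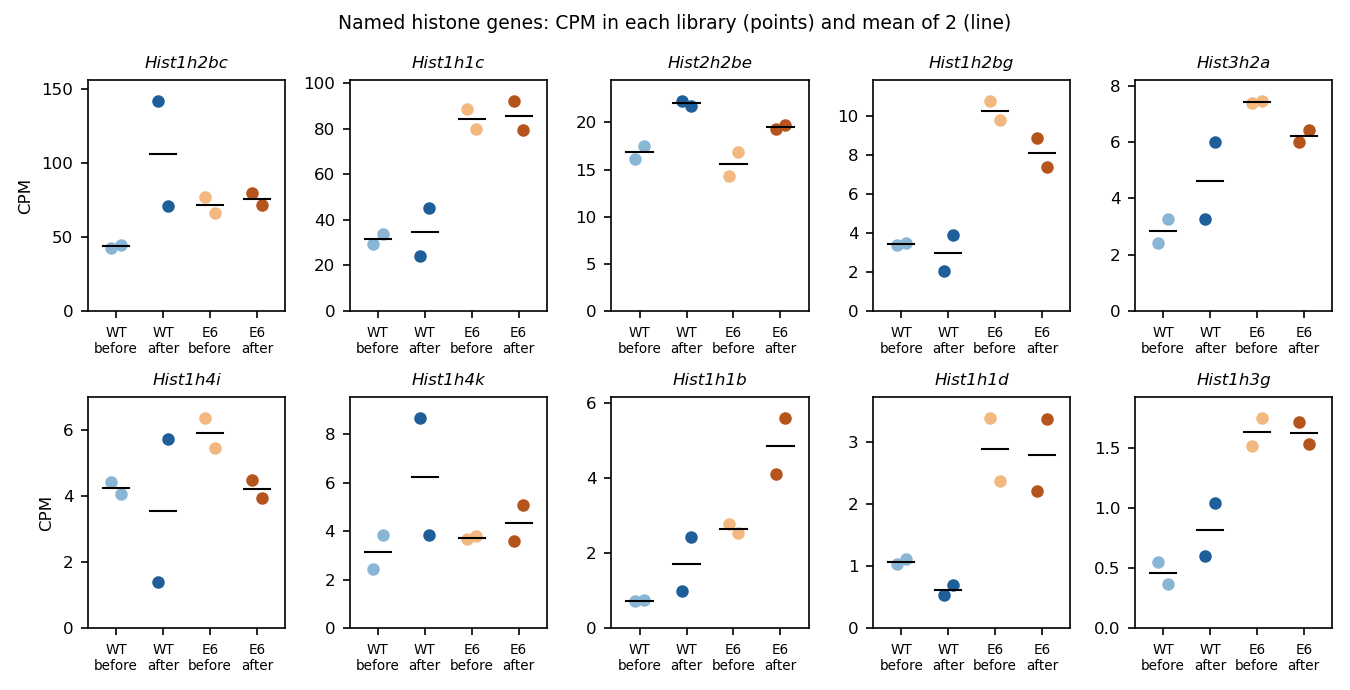
Points give the CPM of 10 histone genes in each library, by condition, with the mean of 2 libraries as a line. Each vertical axis starts at 0 and has its own scale. Hist1h1c, Hist1h2bg, Hist1h1d, Hist1h1b and Hist1h3g are higher in all 4 E6 libraries than in all 4 WT libraries, and Hist1h2bc is highest in 1 library of WT after adhesion (142.1 CPM).

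Both H2A genes tested were higher in E6. Hist3h2a had 2.43, 3.26, 3.26 and 6.01 CPM in WT and 7.38, 7.45, 6.00 and 6.44 CPM in E6. Replicate 2 of WT after adhesion just reached the lowest E6 library, with a log2 FC of 0.88 (SE 0.20) and an FDR of 0.0207 by edgeR. The gene overlaps Trim17 on its own strand and Gm44313 on the other, and the strand setting of the counting is not given in the sources used here, so that reads of these genes cannot be told apart. Hist1h2ad had 0.425 to 1.11 CPM in WT and 1.60 to 1.85 CPM in E6, without overlap, and a log2 FC of 1.45 (SE 0.31, FDR = 0.0182 by edgeR). An antisense gene, Gm44359, lies across it.

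Of the H3 genes, Hist1h3c, Hist1h3g, Hist1h3b and Hist1h3d were higher in E6, with no overlap between the cell types. Their log2 FC lay between 1.09 for Hist1h3d (FDR = 0.0217 by edgeR) and 1.77 for Hist1h3c (FDR = 0.0159). Hist1h3g, for example, had 0.370 to 1.04 CPM in WT and 1.52 to 1.74 CPM in E6. These are low values, with 62 counts over 8 libraries for Hist1h3b and 206 for Hist1h3d. Hist1h3b was called in 3 of 8 other settings of the processing. With the replicate block its FDR was 0.0638, and with culture hours as a term of the model 0.0766.

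Of the H4 genes, Hist1h4d was higher in E6, with a log2 FC of 2.06 (SE 0.45, FDR = 0.0193 by edgeR). Its WT libraries ranged from 0.133 to 0.518 CPM, in part under the floor of 3 counts, and its E6 libraries from 0.980 to 2.21 CPM. Hist1h4i and Hist1h4k, the H4 genes with more counts, overlapped between the cell types, with log2 FC of 0.33 (SE 0.34) and -0.15 (SE 0.32).

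**Figure D4:**
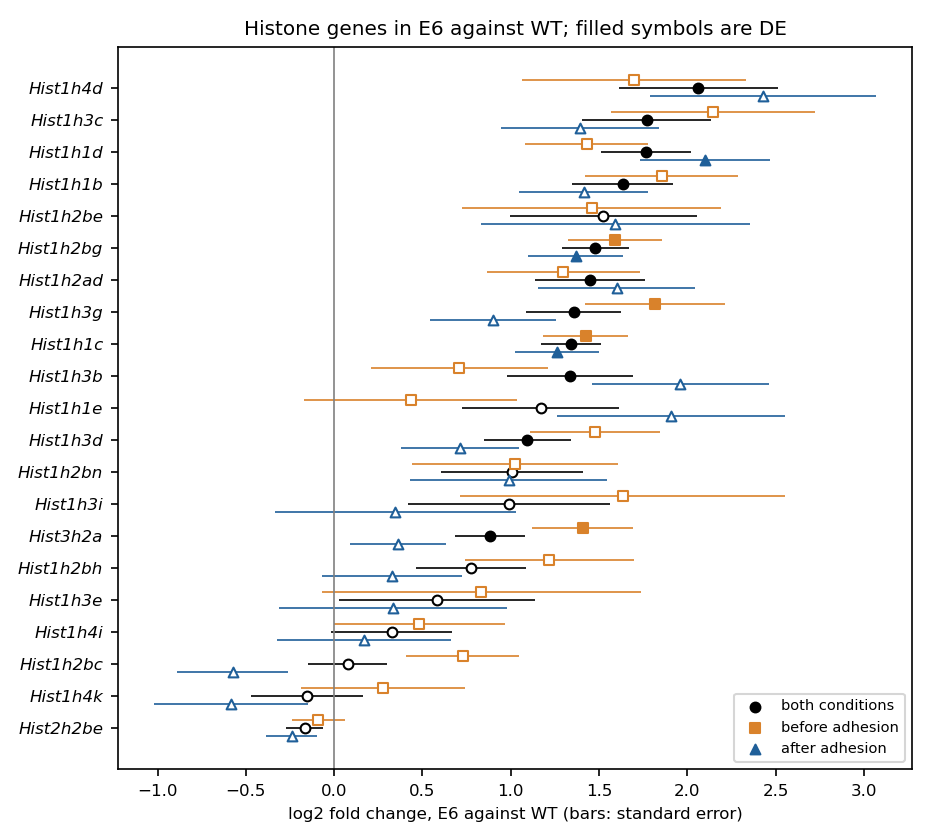
Log2 FC of E6 against WT for the 21 tested histone genes (horizontal, bars are 1 standard error, derived from the test statistic). Circles give both conditions (4 libraries against 4), squares before adhesion (2 against 2) and triangles after adhesion (2 against 2). Filled symbols are DE. The circles reach from -0.17 for Hist2h2be to 2.06 for Hist1h4d, and 11 of them are filled.

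Before adhesion (2 libraries against 2), 4 of the 21 members were DE and higher in E6, beside 5.01% of all genes tested. They were Hist1h3g (log2 FC 1.82, SE 0.40, FDR = 0.0450), Hist1h2bg (1.59, SE 0.27, FDR = 0.0197), Hist1h1c (1.42, SE 0.24, FDR = 0.0203) and Hist3h2a (1.41, SE 0.29, FDR = 0.0359), each by edgeR. With the replicate block Hist1h3g was not DE (FDR = 0.0814). The median log2 FC was 1.41 over the members and -0.00 over all genes. This median is in part set by the filter, which Hist1h3g also passed through E6. With only these 4 libraries in the model 11 members were DE, and with culture hours as a term 2 were. The share called over all genes in these 2 fits is not given here. After adhesion, 3 members were DE and higher in E6, beside 8.91% of all genes. These were Hist1h1d (2.10, SE 0.37, FDR = 0.0185), Hist1h2bg (1.37, SE 0.27, FDR = 0.0245) and Hist1h1c (1.26, SE 0.24, FDR = 0.0225), each by edgeR. The median was 0.99 over the members and -0.02 over all genes, and the former is likewise in part set by the filter. With only these 4 libraries no member was DE after adhesion, in a fit whose share called over all genes is not given here. Without replicate 1 of WT after adhesion the count after adhesion was 7 higher and 1 lower, with a call rate of 15.6% over all genes. Without replicate 2 it was 13 higher and 3 lower (Hist1h2ai, Hist1h2bc and Hist1h4k), with 37.7% of all genes called. These comparisons share no libraries with each other, but the comparison over both conditions contains the libraries of both.

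After against before adhesion, no histone gene was called DE by edgeR. In WT, where the share called over all genes was 0%, 5 of the 21 members had an unadjusted p under 0.05, as did 7.48% of all genes. DESeq2 called 1 member, Hist1h2bc, beside 0.373% of all genes. The estimate for Hist1h2bc was a log2 FC of 1.34 (SE 0.32, FDR = 0.396 by edgeR). Both libraries after adhesion, at 142.1 and 71.0 CPM, were above both before, at 42.7 and 44.9 CPM. Without replicate 1 the log2 FC was 0.66 (FDR = 0.000178 by edgeR), and without replicate 2 it was 1.78 (FDR = 5.16e-13 by edgeR). In these the lone library is assumed to vary like the other groups. Hist1h1b (1.26, SE 0.45), Hist3h2a (0.74, SE 0.29) and Hist2h2be (0.42, SE 0.15) also had both libraries after adhesion above both before, each with an FDR of 0.620 by edgeR. Without replicate 1, 3 members were DE and higher after adhesion in WT (Hist1h1b, Hist1h2bc and Hist3h2a), with 1.74% of all genes called. Without replicate 2, 4 were higher and 1 lower, with 29.8% of all genes called.

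In E6, where 2.00% of the genes tested were called for adhesion, no member was DE by edgeR or by DESeq2, and no member had an unadjusted p under 0.05 by edgeR, against 6.97% of all genes. With only the 4 E6 libraries in the model, 1 member, Hist1h1b, was DE, in a fit whose share called over all genes is not given here. Hist1h1b had the lowest p (log2 FC 0.82, SE 0.35, FDR = 0.729 by edgeR), with 4.10 and 5.58 CPM after against 2.76 and 2.54 CPM before. The median log2 FC of the members was 0.42 in WT and 0.06 in E6, beside 0.02 and -0.02 over all genes. Averaged over the cell types, no member was DE by edgeR or by DESeq2, and the share called was 1.89%. An unadjusted p under 0.05 was found for 5 members and 9.89% of all genes. The summed thymocyte markers were higher after adhesion in both cell types (values above), and their part in these histone values was not tested.

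The difference between the adhesion effects of E6 and WT was called for no gene tested (0%), and 2 members had an unadjusted p under 0.05 by edgeR, as did 2.54% of all genes. They were Hist1h2bc (-1.30, SE 0.45, FDR = 0.988) and Hist3h2a (-1.05, SE 0.39, FDR = 0.988). DESeq2 called neither. Without replicate 1 of WT after adhesion both were DE by edgeR, with the difference for Hist1h2bc at -0.60 (FDR = 0.0116) and 1.22% of all genes called. Without replicate 2, Hist1h4i was called higher and Hist1h2ai, Hist1h2bc and Hist1h4k lower, Hist3h2a was not called, and 25.6% of all genes were.

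Replicate 1 of WT after adhesion departed from replicate 2 along GC content, and histone genes lay on both sides of the median of other genes. Over all genes whose mean log2 CPM reached 2, the median difference of replicate 1 minus replicate 2 went from 0.36 at 40% to 45% GC to -0.54 at 55% to 60% GC. Among the 21 members, 8 were higher in replicate 1 and 13 lower. Hist1h1c (55.1% GC) differed by -0.78 and Hist1h2bg (53.7% GC) by -0.76, both lower in replicate 1. Hist1h2bc (45.9% GC) differed by 1.13 and Hist1h4i (52.8% GC) by -1.82, beyond the median of genes of like GC content. Hist1h4k, at 65.4% GC, was higher in replicate 1 by 1.28, against the direction of the other genes. With GC content corrected in each library, 11 members were DE in E6 over both conditions, the same genes as without it, beside 12.0% of all genes.

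**Figure D5:**
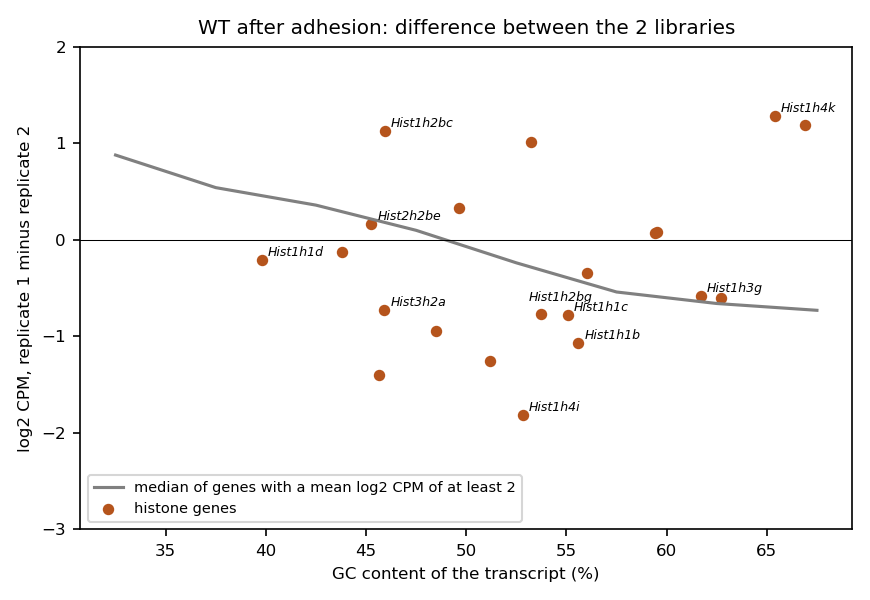
The difference in log2 CPM between the 2 libraries of WT after adhesion (vertical, replicate 1 minus replicate 2) against the GC content of the transcript (horizontal, %). Points are the 21 tested histone genes and the line is the median of genes in bins of 5% GC. Hist1h2bc (1.13) and Hist1h4k (1.28) lie above the line and Hist1h4i (-1.82) below it.

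Other genes of histone supply were counted in the same comparison of E6 with WT, in which edgeR called 11.3% of all genes, and 35.3% were under an unadjusted p of 0.05. None of 16 genes of histone mRNA 3′ end processing and decay was DE in E6 against WT by edgeR, 2 had an unadjusted p under 0.05, and DESeq2 called none as well. Slbp, the stem-loop binding protein, had 77.8 to 110.4 CPM in WT and 104.8 to 110.6 CPM in E6, with a log2 FC of 0.21 (SE 0.11, FDR = 0.207 by edgeR) over both conditions. Npat had a log2 FC of 0.09 (SE 0.15, FDR = 0.689 by edgeR). Neither was DE for adhesion in WT (0.32 for Slbp and 0.18 for Npat), nor in any other comparison. Of 45 genes of DNA replication and S phase, 1 was higher and 1 lower in E6. They were Ccne1, cyclin E1 of the G1 to S transition (log2 FC 0.73, SE 0.08, FDR = 0.00135 by edgeR), and Ccna2, cyclin A2 of S and G2 phase (-0.64, SE 0.12, FDR = 0.0101 by edgeR). The median log2 FC of this list was 0.14.

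Among 12 histone chaperones, which carry histones to DNA, 2 were lower in E6. They were Asf1a (-0.77, SE 0.11, FDR = 0.00429 by edgeR) and Nap1l1 (-0.64, SE 0.13, FDR = 0.0161 by edgeR), and with the GC correction Nap1l1 (-0.49) was below the FC limit. Of 9 tested histone variants encoded outside the clusters, most of whose mRNAs are polyadenylated (H2afx is known to make both kinds of end), 1 was DE and lower in E6, H2afv (-0.70, SE 0.13, FDR = 0.00953 by edgeR). The median log2 FC was -0.15 over these variants. Their summed level was 1895 to 2492 CPM, a larger part of each library than the 110.5 to 238.1 CPM of the replication-dependent genes. None of 28 tested RNAs of other kinds without a poly(A) tail was DE by edgeR, with 5 at an unadjusted p under 0.05 and 1 called without the filter on low counts. The 127 symbols of that list summed to 43.2 to 74.0 CPM. Malat1 and Neat1, long noncoding RNAs that poly(A)-selected libraries retain, summed to 373 to 1027 CPM, and neither was DE in E6 against WT.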

How the data were processed

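RNA was sequenced as paired-end reads of 100 bases in 8 libraries, 2 in each of 4 conditions. Alignment by the authors was to mm10, with STAR (2.5.0a per the submitters' processing notes), and HTSeq gave the counts per gene. The annotation and the strand setting are not given in the sources used here. The deposited values were raw read counts per gene symbol, with no normalization. Rows that name no gene (alignments outside genes, ambiguous or not unique) were left out, which kept 66.7% to 78.8% of alignments. In 1 library, 18 symbols, no histones among them, stood as dates and were put back by gene order. Total gene counts ranged from 13506610 to 20145154, and intervals and floors cover counting error only.

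Groups came from the titles and source names. The text on E6 before adhesion also speaks of co-culture, which goes against its titles. The labels give different culture hours for the replicates of each condition except WT before adhesion. Nothing else says that replicates were separate cultures. The p-values therefore measure the spread between these samples, which may be technical and, by the labels, includes a difference in culture time. Counts were filtered (filterByExpr), scaled by TMM (factors 0.938 to 1.03) and tested with the quasi-likelihood test of edgeR 4.0.16 in R 4.3.3, with 1 coefficient per condition over all 8 libraries and Benjamini-Hochberg adjustment. CPM in the text are counts per 1000000 gene counts. The steps were tested on simulated data. Alternatives were DESeq2 1.42.0, RLE size factors, other filters, no FC limit, a replicate block, a correction for GC content, library sizes without histone genes, only the 4 libraries compared, and each library left out, and culture hours as a term was added after seeing the data. The members and lists were chosen with earlier results of these data known. Named with values were the 3 most changed DE members of each comparison with at least 1 CPM, the 8 highest per kilobase, H1 members of at least 1 CPM, germ-cell members, Slbp, Npat, Aire and the 2 most changed DE genes of each other list. Other members were named after their values were seen. Transcripts were those of GENCODE vM21.

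Replicate numbers were shared between conditions, but no label ties them to a batch, and the correlation of same-numbered deviations ranged from -0.08 to 0.22.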

Additional observations from a re-analysis of the deposited data

Results flagged for a closer look

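Hist3h2a, an H2A gene, moved in opposite directions with adhesion in WT and E6. It had 2.43 and 3.26 CPM before and 3.26 and 6.01 CPM after adhesion in WT, and 7.38 and 7.45 CPM before and 6.00 and 6.44 CPM after adhesion in E6. The difference of the log2 FC, E6 minus WT, was -1.05 (SE 0.39, unadjusted p = 0.0315, FDR = 0.988 by the quasi-likelihood test of edgeR), so it did not pass the adjustment over all genes. It was between -1.33 and -0.59 with 1 library left out.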

How the results depend on the processing

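The 11 members called higher in E6 over both conditions were 10 with the replicate block, without Hist1h3b, and the block changed no count of the other comparisons by more than 1.5 times, although before adhesion Hist1h3g lost its call (FDR = 0.0814). The numbers were not shown to pair the samples. Before adhesion (4 DE) the count was 7 with the GC correction (7.57% of all genes called), 2 with culture hours and 11 with only the 4 libraries. After adhesion (3 DE) it was 5 with RLE size factors, 5 with DESeq2 (8.26% of all genes), 6 with the GC correction (11.9%) and 0 with only the 4 libraries. For adhesion (0 DE), DESeq2 called 1 in WT and the 4 libraries alone 1 in E6. With 1 library left out, the counts ranged from 3 to 15 over both conditions, 0 to 11 before and 0 to 16 after adhesion, and for adhesion from 0 to 5 averaged, 0 to 5 in WT, 0 to 1 in E6 and 0 to 4 for the difference. The share called over all genes also differed between fits, so these counts alone do not separate a change of the members from a change of all genes. The causes were not tested.

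Of the other lists in E6 against WT, histone variants (1 DE) gave 2 with DESeq2, 2 without the filter and 3 without an FC limit. Processing genes (0) gave 1 without an FC limit. Chaperones (2) gave 1 with the GC correction, with or without the block, 1 with culture hours and 4 without an FC limit. S phase genes (2) gave 9 without an FC limit. RNAs without a poly(A) tail (0) gave 1 without the filter and 1 with the GC correction and block. With 1 library left out these lists ranged from 1 to 3, 0 to 1, 1 to 6, 1 to 6 and 0 to 11.

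The mean summed level per condition, in the order WT before, WT after, E6 before and E6 after, was 72.2, 86.2, 149.8 and 156.7 CPM without Hist1h2bc, and 221.6 CPM in E6 after adhesion without members under 50% unique. With 1 library left out it was 110.5 to 121.4, 171.0 to 214.5, 210.1 to 233.1 and 227.0 to 238.1 CPM.

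Log2 FC that changed sign were not DE with all libraries. Over both conditions, Hist1h4k was 0.035 with culture hours and -0.40 to 0.26 with 1 library left out, Hist1h2bc -0.14 to 0.43 and Npat -0.047 to 0.30. Before adhesion Hist1h4k was -0.023 to 0.63 and Hist2h2be -0.22 to 0.026. After adhesion Hist1h4i was -0.41 to 1.48, Hist1h2bc -1.01 to 0.13 and Hist1h4k -1.09 to 0.22. For adhesion, Hist1h2bc in E6 was -0.067 to 0.13, and Npat in WT -0.22 to 0.47, -0.00865 with the GC correction and -0.010 with the block added. Members with few counts were limited by depth.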
